A study of Mus musculus with 48 samples.

Results

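Transcripts of the proteasome were measured in liver of mice given dichloroacetic acid (DCA), a disinfection by-product of drinking water that causes liver tumors in mice. Genes were chosen by symbol (Psma, Psmb, Psmc, Psmd, Psme, Psmf or Psmg followed by a digit), and 43 of the 11275 genes listed for frozen (FROZ) tissue matched. Psmc3ip, a meiotic recombination factor, also carries such a symbol and was left out, which leaves 42 proteasome genes in FROZ. In formalin-fixed paraffin-embedded (FFPE) tissue 31 of 6673 listed genes matched, and all 31 were also listed in FROZ. The animals were male B6C3F1 mice, 4 weeks old, that drank water with 0, 1.0, 2.0 or 3.5 g/L of DCA for 6 days, equal to 0 for the vehicle controls and to 198, 313 and 427 mg/kg-d. Each dose had 6 animals, and each of the 24 animals gave 1 FROZ and 1 FFPE library, so that 48 libraries were measured with TempO-Seq, in which ligated pairs of detector oligos are counted in place of whole transcripts. FROZ libraries came from purified RNA of mixed lobes and FFPE libraries from lysate of the left lateral and right medial lobes, so preservation cannot be told apart from lobe and RNA input. FROZ libraries held 6.69 to 9.85 M reads on listed genes and FFPE libraries 1.83 to 6.01 M, as recovered from the smallest steps of the values.

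The proteasome degrades proteins tagged with ubiquitin. Its 20S core is a barrel of alpha and beta rings whose constitutive catalytic subunits are Psmb5, Psmb6 and Psmb7. The 19S cap recognises the ubiquitin chain, unfolds the substrate with a ring of ATPases (Psmc genes) and feeds it to the core. In the immunoproteasome, which is induced by interferon gamma, Psmb8, Psmb9 and Psmb10 replace the constitutive catalytic subunits and favour peptides for class I antigen presentation. Dedicated chaperones assemble the core (Psmg genes) and the base of the cap (Psmd5, Psmd9, Psmd10), PA28 (Psme1, Psme2, Psme3) and PA200 (Psme4) open the core in place of the cap, and Psmf1 (PI31) was described as an inhibitor of the core. In liver the transcription factors Nfe2l1 and Nfe2l2 are known to drive proteasome genes through antioxidant response elements.

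Of 48 genes in the subunit classes, 41 were listed in FROZ and 30 in FFPE. The FROZ genes were 12 of the constitutive 20S core, 2 of the immunoproteasome, 16 of the 19S cap, 7 assembly chaperones and 4 activators or inhibitors. Psme2b, a retrogene copy of Psme2, was the remaining member. The core genes Psma5, Psma7 and Psma8, the immunoproteasome and thymus subunits Psmb8 and Psmb11, the ATPase Psmc6 and the PA28 gene Psme2 were not listed in FROZ, and no value of theirs was analysed here. Every member was listed only if it passed the low-count filter of the whole table. Liver identity was checked with hepatocyte markers, of which 7 of 7 were listed in FROZ, with a summed level of 36062 to 44046 CPM in vehicle livers. Levels below are log2(CPM + 1) and are not compared between genes, because probes differ in efficiency and abundant transcripts were attenuated, Psma3 among them.

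The promoters of 5 members are shown because the results turn on these genes. Psmd8 and Psmf1 had some of the largest increases, Psmb5 and Psmb6 are catalytic subunits that also rose, and Psme4 was lower. The sequences are the upstream bases of RefSeq promoters on GRCm38.p6, the build of the files (mm10), written on the strand of the gene without bases that lie in an annotated exon. Capitals mark the core of the antioxidant response element, TGANNNNGC, searched on both strands. The 222 bases of Psmd8 lie at chr7:29180702-29180923 on the minus strand, the 250 of Psmf1 at chr2:151741311-151741560 on the minus strand, the 223 of Psmb5 at chr14:54618023-54618245 on the minus strand, the 250 of Psmb6 at chr11:70525107-70525356 on the plus strand and the 201 of Psme4 at chr11:30771525-30771725 on the plus strand.
Psmd8: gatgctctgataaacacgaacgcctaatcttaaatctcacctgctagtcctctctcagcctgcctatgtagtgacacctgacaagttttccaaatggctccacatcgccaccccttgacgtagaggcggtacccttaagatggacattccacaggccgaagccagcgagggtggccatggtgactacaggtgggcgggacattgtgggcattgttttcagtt
Psmf1: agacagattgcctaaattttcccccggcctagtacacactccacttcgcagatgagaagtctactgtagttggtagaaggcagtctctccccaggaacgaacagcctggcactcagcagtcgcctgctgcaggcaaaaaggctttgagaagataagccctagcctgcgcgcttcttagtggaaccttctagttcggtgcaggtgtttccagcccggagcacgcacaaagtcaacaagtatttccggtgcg
Psmb5: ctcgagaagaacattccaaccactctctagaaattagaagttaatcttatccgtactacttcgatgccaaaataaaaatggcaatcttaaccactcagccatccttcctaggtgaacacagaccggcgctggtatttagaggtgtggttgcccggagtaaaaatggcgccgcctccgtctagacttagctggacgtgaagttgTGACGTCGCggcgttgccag
Psmb6: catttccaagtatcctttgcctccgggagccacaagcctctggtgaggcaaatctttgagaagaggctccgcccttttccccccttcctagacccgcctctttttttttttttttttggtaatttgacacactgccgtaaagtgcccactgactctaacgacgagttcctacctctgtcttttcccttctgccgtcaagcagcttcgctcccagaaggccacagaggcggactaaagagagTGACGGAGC
Psme4: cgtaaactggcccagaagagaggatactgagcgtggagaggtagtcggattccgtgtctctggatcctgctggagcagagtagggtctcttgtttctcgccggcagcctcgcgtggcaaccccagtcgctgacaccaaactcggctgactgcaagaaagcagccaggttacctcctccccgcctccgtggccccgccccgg
Psmb5 and Psmb6 each held 1 match, starting 47 and 9 bases before the transcription start, and the windows of Psmd8, Psmf1 and Psme4 held none. Promoters were found for 35 of the 42 members, and 13 of these (37.1%) held the core motif in the 250 upstream bases, beside 38.7% of all 27025 genes with a promoter. The stricter form TGANTCAGC, of the same length with more fixed letters, stood in 0 of the 35 and in 1.17% of all genes. The letters of an interferon-stimulated element (GAAA, 2 bases of any kind and GAAA) stood in 3 of the 35 (Psmb3, Psmd4 and Psmd9; 8.57%) and in 3.46% of all genes.

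The question of the main comparison was which proteasome genes differed from vehicle at each dose. In FROZ liver, 18 of the 42 genes rose at 313 mg/kg-d and 16 rose at 427 mg/kg-d, among them the lid subunit Psmd8, the inhibitor gene Psmf1 and the catalytic subunits Psmb5 and Psmb6. The increases were small, at most 1.55-fold at 313 mg/kg-d and 1.52-fold at 427 mg/kg-d (Psmd8). Psme4 (PA200) was the 1 gene that fell, at 427 mg/kg-d. Calls are by limma with a Benjamini-Hochberg adjusted p (FDR) under 0.05 over all listed genes. At this rule 20.5% of all genes were higher and 6.15% lower at 313 mg/kg-d, and 22.7% were higher and 7.33% lower at 427 mg/kg-d, so the members' shares of 42.9% at 313 mg/kg-d and 40.5% at 427 mg/kg-d (both directions) stood beside 26.7 and 30.1% of all genes. With a fold change above 2 added, 0 of 42 members were called at any dose (12, 261 and 395 of all genes, or 0.106, 2.31 and 3.5%). All 6 treated animals lay above all controls for 1, 6 and 8 members over the 3 doses (1.41, 9.14 and 11.4% of all genes) and below them for 0, 0 and 1 (0.479, 2.39 and 3.27%). The log2 fold change was above 0 for 31, 39 and 36 members, beside 65.6, 65 and 63.9% of all genes, with no test. The same 15 genes rose at both upper doses, which share their vehicle animals. In bulk liver a change in the number of cells of a type and a change in RNA per cell cannot be told apart.

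The counts depended on how libraries were scaled. The median of all genes was 0.11 above vehicle at 313 mg/kg-d and 0.10 above at 427 mg/kg-d on the log2 scale, and that of the members was 0.27 and 0.18. After median-ratio scaling, which brings the median gene to -0.0043 and -0.0069, the members' medians were 0.13 and 0.058. Then 6 members rose at 313 mg/kg-d (14.3%, beside 10.3% of all genes) and 8 at 427 mg/kg-d (19%, beside 12.6%), shares near those of all genes. The genes higher with both scalings were Psma4, Psmd5, Psmd8, Psmd14, Psme3 and Psmf1 at 313 mg/kg-d and Psma4, Psmb5, Psmb6, Psmd5, Psmd8, Psme1, Psmf1 and Psmg1 at 427 mg/kg-d. Psme4 was lower with median-ratio scaling at both doses, as were 10.8 and 12.6% of all genes. Leaving out animal 74 or animal 75 lowered the count at 313 mg/kg-d to 11. Of the 18 calls at 313 mg/kg-d, 8 held without any single animal, and of the 17 at 427 mg/kg-d, 13 did.

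**Figure D1:**
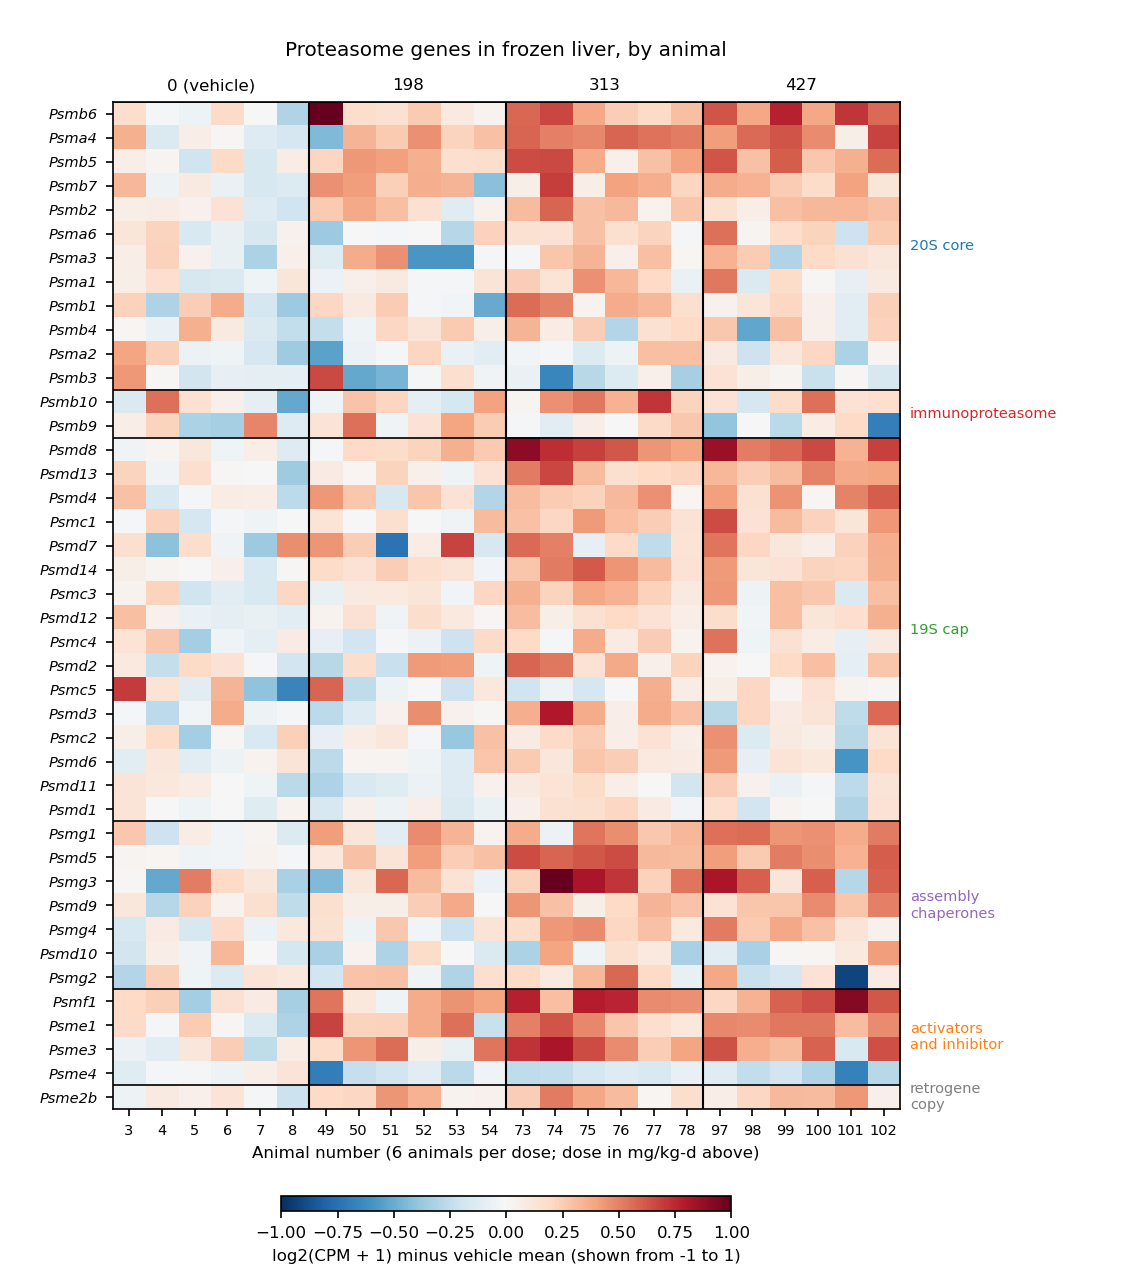
Log2(CPM + 1) of the 42 proteasome genes (rows, by class and by change at 427 mg/kg-d) minus the vehicle mean of the gene, in the 24 FROZ animals (columns, 6 per dose); red is higher and blue lower than the vehicle mean, and colours are limited to 1 in each direction. Psmd8, Psma4, Psmd5 and Psmf1 are red in all 6 animals at 313 and at 427 mg/kg-d, and Psme4 is blue in all 6 at 427 mg/kg-d.

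In the 20S core 4 of 12 genes rose at 313 mg/kg-d and the same number at 427 mg/kg-d. These were 33.3%, beside 20.5 and 22.7% of all genes higher, and the class median was 0.26 and 0.15. Psma4, an alpha-ring subunit, rose at both. Psma4 ran from 3.87 to 4.39 (median 3.98) in vehicle livers, from 3.59 to 4.49 (median 4.31) at 198 mg/kg-d, from 4.51 to 4.62 (median 4.56) at 313 mg/kg-d and from 4.10 to 4.71 (median 4.56) at 427 mg/kg-d. All 6 animals at 313 mg/kg-d lay above every control, and 5 of 6 did at 427 mg/kg-d, where 1 animal overlapped. The log2 fold change was 0.53 (SE 0.126, FDR 0.00248) at 313 mg/kg-d and 0.47 (SE 0.126, FDR 0.00533) at 427 mg/kg-d. Psmb5, which carries the chymotrypsin-like activity, also rose. Psmb5 ran from 3.66 to 4.06 (median 3.91) in vehicle livers, from 4.03 to 4.30 (median 4.15) at 198 mg/kg-d, from 3.91 to 4.52 (median 4.25) at 313 mg/kg-d and from 4.13 to 4.49 (median 4.32) at 427 mg/kg-d. Treated animals did not overlap the controls at 427 mg/kg-d, and 1 animal overlapped at 313 mg/kg-d. The log2 fold change was 0.40 (SE 0.107, FDR 0.00619) at 313 mg/kg-d and 0.45 (SE 0.107, FDR 0.00197) at 427 mg/kg-d. Psmb6 is the caspase-like subunit. Psmb6 ran from 5.31 to 5.80 (median 5.61) in vehicle livers, from 5.65 to 6.74 (median 5.78) at 198 mg/kg-d, from 5.81 to 6.28 (median 5.95) at 313 mg/kg-d and from 6.00 to 6.38 (median 6.21) at 427 mg/kg-d. The 6 animals of each upper dose lay above all controls, and 1 animal at 198 mg/kg-d lay above every other library. Psmb6 changed by 0.39 (SE 0.137, FDR 0.033) at 313 mg/kg-d and 0.58 (SE 0.137, FDR 0.002) at 427 mg/kg-d. With median-ratio scaling Psmb5 and Psmb6 had an FDR of 0.0794 and 0.183 at 313 mg/kg-d and of 0.0361 and 0.0182 at 427 mg/kg-d. Psmb7, the trypsin-like subunit, did not pass. Psmb7 ran from 3.09 to 3.58 (median 3.19) in vehicle livers, from 2.83 to 3.71 (median 3.60) at 198 mg/kg-d, from 3.31 to 3.94 (median 3.54) at 313 mg/kg-d and from 3.37 to 3.65 (median 3.55) at 427 mg/kg-d. Its groups overlapped at every dose, and its log2 fold change was 0.30 (SE 0.136, FDR 0.106) at 313 mg/kg-d and 0.28 (SE 0.136, FDR 0.124) at 427 mg/kg-d. Psmb2, a structural beta subunit, rose by 0.31 (SE 0.0931, FDR 0.0157) at 313 mg/kg-d and 0.25 (SE 0.0931, FDR 0.0457) at 427 mg/kg-d. The other 3 structural and 4 alpha genes had no call at either dose, and Psmb3 was at -0.24 (FDR 0.252) at 313 mg/kg-d. Among these, Psma3 and Psmb4 had a median of 5.0 and 10.5 reads in vehicle libraries, so a small change could be missed.

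In the 19S cap 5 of 16 genes rose at each upper dose (31.2%, beside 20.5 and 22.7% of all genes higher). The class median was 0.22 and 0.15. With median-ratio scaling 2 and 1 of the 16 rose (12.5 and 6.25%, beside 10.3 and 12.6% of all genes), with a class median of 0.11 and 0.036. The lid subunit Psmd8 (chr7:29174188-29180701, minus strand) had the lowest FDR of all members. Psmd8 ran from 8.35 to 8.60 (median 8.48) in vehicle livers, from 8.47 to 8.84 (median 8.69) at 198 mg/kg-d, from 8.88 to 9.38 (median 9.13) at 313 mg/kg-d and from 8.83 to 9.34 (median 9.10) at 427 mg/kg-d. Animals of both upper doses lay above all controls, and at 198 mg/kg-d 5 of 6 did. The log2 fold change of Psmd8 was 0.63 (SE 0.0886, FDR 8.32e-06) at 313 mg/kg-d and 0.61 (SE 0.0886, FDR 7.21e-06) at 427 mg/kg-d, and 0.49 and 0.46 with median-ratio scaling. Psmd14, the lid deubiquitinase that removes the ubiquitin chain, rose by 0.38 (SE 0.0789, FDR 6.49e-04) at 313 mg/kg-d and 0.25 (SE 0.0789, FDR 0.0179) at 427 mg/kg-d. Psmd13, another lid subunit, rose by 0.35 (SE 0.0992, FDR 0.0109) at 313 mg/kg-d and 0.36 (SE 0.0992, FDR 0.00638) at 427 mg/kg-d. Among the ATPases Psmc1 rose at both doses, by 0.27 (FDR 0.022) and 0.32 (FDR 0.00671), while Psmc3 rose at 313 mg/kg-d by 0.27 (FDR 0.0348) and had an FDR of 0.148 at 427 mg/kg-d. Psmd4, a ubiquitin receptor, rose at 427 mg/kg-d by 0.36 (FDR 0.0309) and was at 0.27 (FDR 0.12) at 313 mg/kg-d. Psmd1 and Psmd2, the scaffold subunits of the base, did not pass at either dose. With median-ratio scaling Psmd8 was the 1 gene of the cap that rose at both doses.

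Assembly chaperones had the largest share of calls among the classes with more than 4 genes, 5 of 7 at 313 mg/kg-d and 4 of 7 at 427 mg/kg-d, with a class median of 0.28 and 0.33 (71.4 and 57.1%, beside 20.5 and 22.7% of all genes higher). With median-ratio scaling 1 and 2 of the 7 rose (14.3 and 28.6%, beside 10.3 and 12.6%), and the core had 1 and 3 of 12 (8.33 and 25%). Differences between classes were not tested. Psmd5, a chaperone of the cap base, had the second-lowest FDR of all members, with a log2 fold change of 0.53 (SE 0.0753, FDR 1.05e-05) at 313 mg/kg-d and 0.44 (SE 0.0753, FDR 6.45e-05) at 427 mg/kg-d, and its 6 animals lay above every control at all 3 doses. Psmg1, which pairs with Psmg2 to build the alpha ring, rose at both upper doses. Psmg1 ran from 4.02 to 4.49 (median 4.23) in vehicle livers, from 4.12 to 4.70 (median 4.46) at 198 mg/kg-d, from 4.17 to 4.76 (median 4.58) at 313 mg/kg-d and from 4.60 to 4.79 (median 4.72) at 427 mg/kg-d. The 427 mg/kg-d animals lay in a narrow band above all controls, and 1 of the 313 mg/kg-d animals fell among them. Psmg1 changed by 0.32 (SE 0.108, FDR 0.0298) at 313 mg/kg-d and 0.48 (SE 0.108, FDR 0.00116) at 427 mg/kg-d. Psmg3, a partner of Psmg4, was read by few counts. Psmg3 ran from 1.59 to 2.61 (median 2.17) in vehicle livers, from 1.66 to 2.68 (median 2.23) at 198 mg/kg-d, from 2.33 to 3.19 (median 2.73) at 313 mg/kg-d and from 1.82 to 2.92 (median 2.70) at 427 mg/kg-d. The groups overlapped at every dose, and a median vehicle library held 32.5 reads of Psmg3. Its log2 fold change was 0.60 (SE 0.2, FDR 0.0262) at 313 mg/kg-d and 0.41 (SE 0.2, FDR 0.13) at 427 mg/kg-d. Psmg4 rose by 0.28 (FDR 0.0392) and 0.27 (FDR 0.0407), and Psmd9 by 0.27 (FDR 0.0395) and 0.33 (FDR 0.0114). Psmg2 and Psmd10 (gankyrin) had no call. Pomp, the core maturation factor, was at 0.22 (FDR 0.358) and 0.12 (FDR 0.62). Psmd5 (both doses) and Psmg1 (427 mg/kg-d) were the chaperones that also rose with median-ratio scaling.

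Among activators and the inhibitor, 3 of 4 genes rose at each upper dose (75%, beside 20.5 and 22.7% of all genes higher). With median-ratio scaling 2 of the 4 rose at each (50%, beside 10.3 and 12.6% of all genes). Psmf1 (chr2:151715812-151744186, minus strand, with the RefSeq start shown above inside that span) had the largest change of this class. Psmf1 ran from 3.21 to 3.79 (median 3.67) in vehicle livers, from 3.51 to 4.09 (median 3.93) at 198 mg/kg-d, from 3.85 to 4.33 (median 4.17) at 313 mg/kg-d and from 3.76 to 4.47 (median 4.16) at 427 mg/kg-d. All 6 animals at 313 mg/kg-d and 5 of 6 at 427 mg/kg-d lay above the controls. The log2 fold change was 0.59 (SE 0.136, FDR 0.00191) at 313 mg/kg-d and 0.56 (SE 0.136, FDR 0.0025) at 427 mg/kg-d, a 1.51-fold and 1.47-fold difference. Psme3, the nuclear PA28 subunit, rose at both. Psme3 ran from 2.65 to 3.15 (median 2.91) in vehicle livers, from 2.83 to 3.46 (median 3.22) at 198 mg/kg-d, from 3.15 to 3.72 (median 3.46) at 313 mg/kg-d and from 2.75 to 3.55 (median 3.38) at 427 mg/kg-d. In each upper dose group 5 of 6 animals lay above the controls. Psme3 changed by 0.55 (SE 0.144, FDR 0.00555) at 313 mg/kg-d and 0.40 (SE 0.144, FDR 0.0357) at 427 mg/kg-d. Its FDR at 427 mg/kg-d was 0.177 with median-ratio scaling. Psme1 is a PA28 subunit induced by interferon gamma. Psme1 ran from 1.91 to 2.48 (median 2.23) in vehicle livers, from 2.00 to 2.90 (median 2.53) at 198 mg/kg-d, from 2.33 to 2.85 (median 2.61) at 313 mg/kg-d and from 2.54 to 2.75 (median 2.70) at 427 mg/kg-d. The 6 animals at 427 mg/kg-d formed a narrow band above the controls, and 4 of 6 lay above them at 313 mg/kg-d. Psme1 changed by 0.36 (SE 0.136, FDR 0.0498) at 313 mg/kg-d and 0.46 (SE 0.136, FDR 0.0104) at 427 mg/kg-d. The call at 427 mg/kg-d held in every leave-out of 1 animal, and that at 313 mg/kg-d was lost in 17 of 24, in a fit of these 2 groups alone (FDR 0.0622), with a covariate for genes at 0 (FDR 0.0559) and with median-ratio scaling (FDR 0.183).

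Psme4, which encodes the PA200 activator (chr11:30771726-30880361, plus strand), moved the other way. Psme4 ran from 6.77 to 7.03 (median 6.88) in vehicle livers, from 6.20 to 6.86 (median 6.69) at 198 mg/kg-d, from 6.64 to 6.82 (median 6.73) at 313 mg/kg-d and from 6.22 to 6.77 (median 6.63) at 427 mg/kg-d. The 6 animals at 427 mg/kg-d lay below all controls, and 5 of 6 did at 313 mg/kg-d. The lowest 427 mg/kg-d animal and the lowest 198 mg/kg-d animal stood apart from the others of their group. The log2 fold change was -0.17 (SE 0.0932, FDR 0.183) at 313 mg/kg-d and -0.30 (SE 0.0932, FDR 0.0143) at 427 mg/kg-d. With median-ratio scaling it was -0.31 (FDR 0.0267) and -0.45 (FDR 0.00137). Without animal 101, the lowest at 427 mg/kg-d, the call stood, and the log2 fold change over all single leave-outs was between -0.34 and -0.23.

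**Figure D2:**
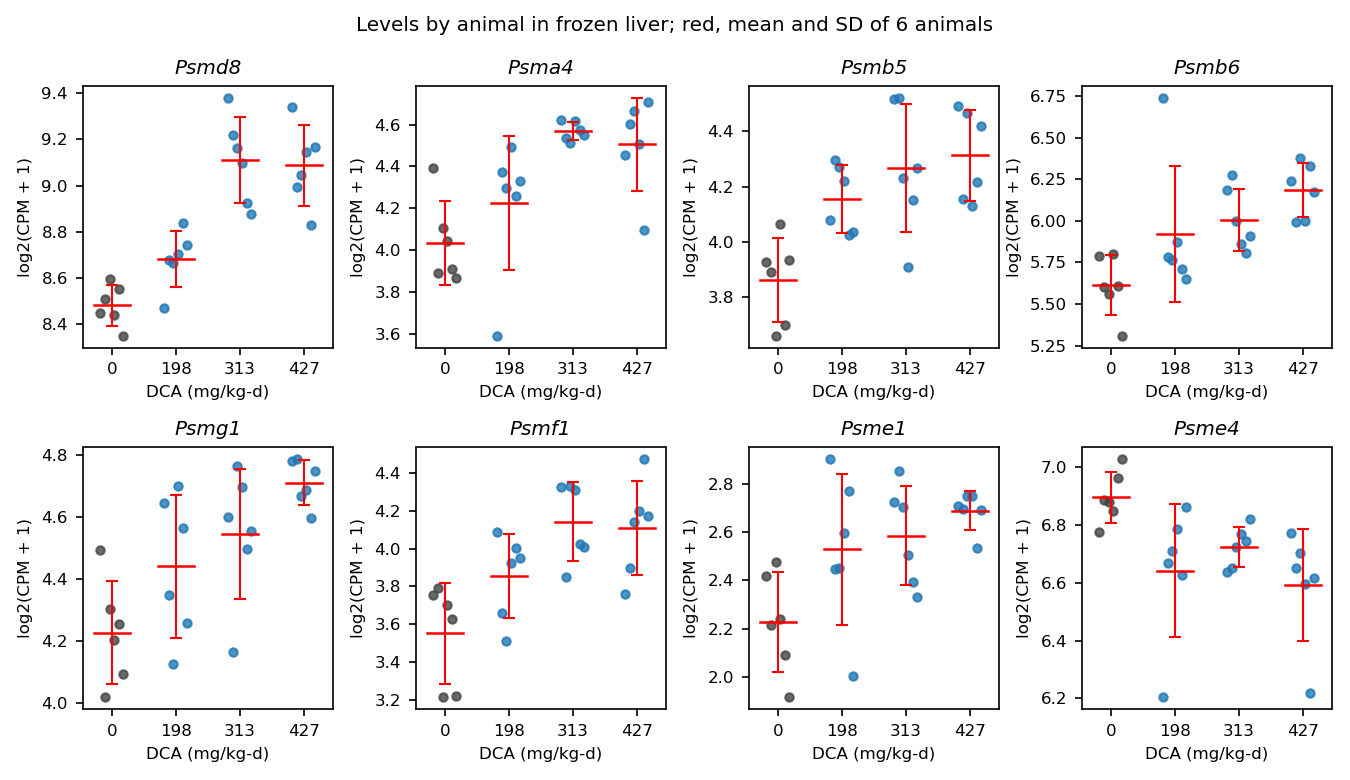
Log2(CPM + 1) in FROZ liver against DCA dose for 8 members; each point is 1 of 6 animals, and the red line and bar are the mean and SD (axes do not start at 0). Psmd8 and Psmb6 at both upper doses, and Psmb5, Psmg1 and Psme1 at 427 mg/kg-d, lie above all controls, while all 6 points of Psme4 at 427 mg/kg-d lie below them.

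**Figure D3:**
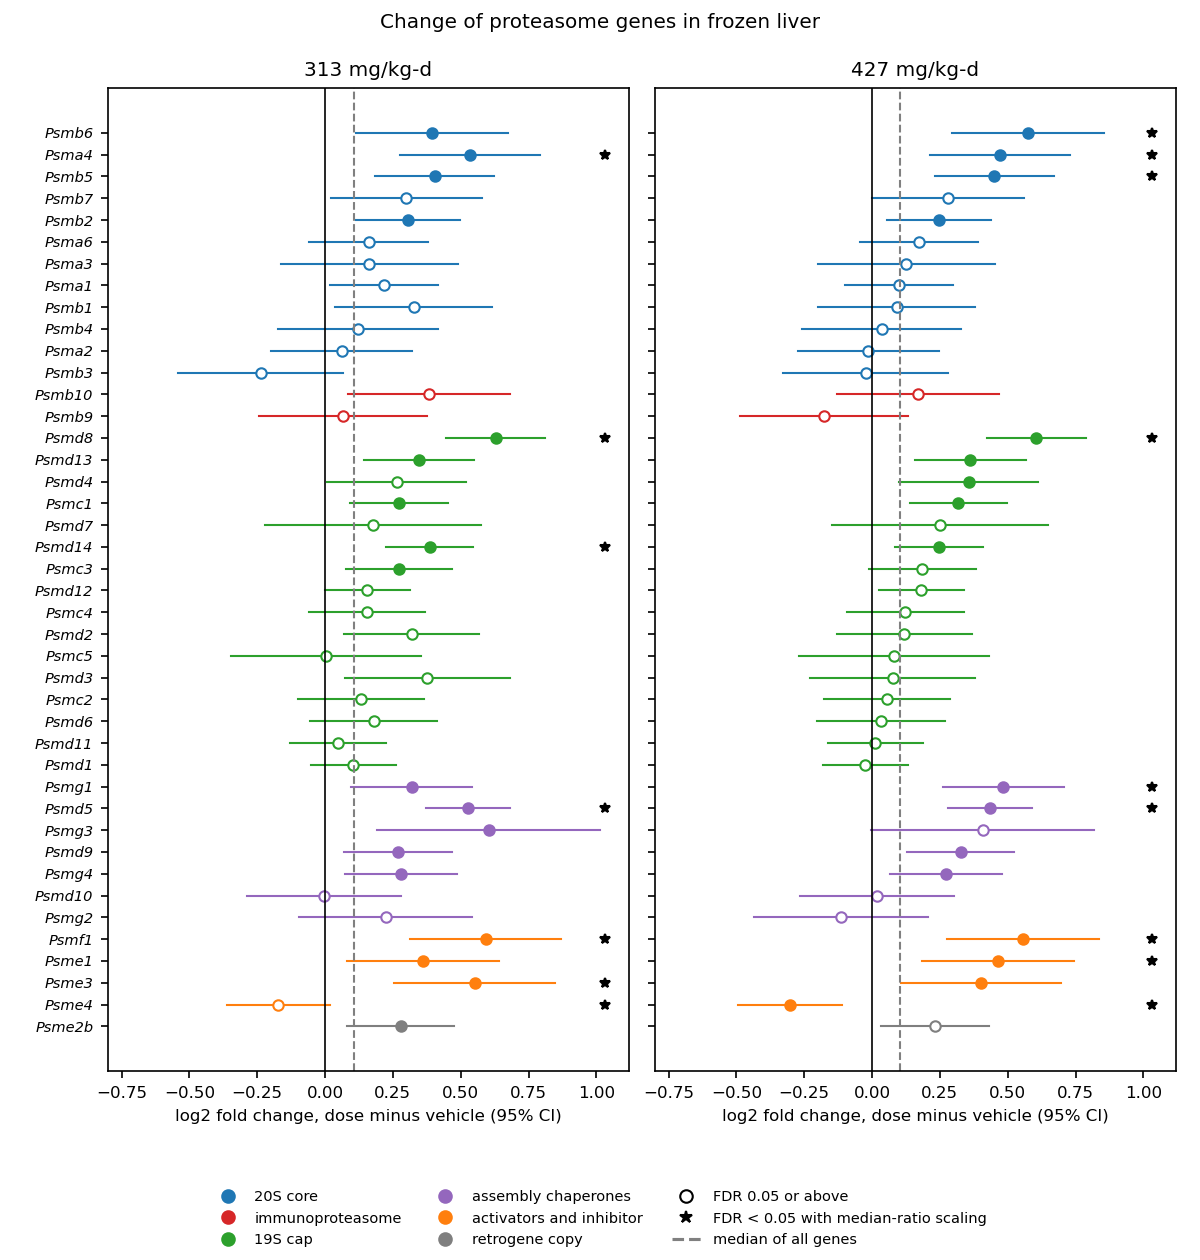
Log2 fold change (dose minus vehicle) of the 42 members in FROZ at 313 and 427 mg/kg-d with 95% confidence intervals from limma; filled points have an FDR under 0.05, stars mark an FDR under 0.05 with median-ratio scaling, and the dashed line is the median of all 11275 genes. Of the 42 members, 18 are filled to the right at 313 mg/kg-d and 16 at 427 mg/kg-d, where Psme4 is the 1 filled to the left.

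The immunoproteasome subunits did not pass at any dose, 0 of 2 (limma), beside 1.56, 26.7 and 30.1% of all genes over the 3 doses. At an unadjusted p under 0.05, Psmb10 was higher at 313 mg/kg-d. Psmb9 is the interferon-induced counterpart of Psmb6. Psmb9 ran from 2.96 to 3.79 (median 3.26) in vehicle livers, from 3.26 to 3.85 (median 3.49) at 198 mg/kg-d, from 3.19 to 3.56 (median 3.33) at 313 mg/kg-d and from 2.61 to 3.49 (median 3.16) at 427 mg/kg-d. The groups overlapped throughout, and the log2 fold change was 0.067 (SE 0.151, FDR 0.789) at 313 mg/kg-d and -0.18 (SE 0.151, FDR 0.407) at 427 mg/kg-d. Psmb10 is the counterpart of Psmb7. Psmb10 ran from 4.21 to 5.27 (median 4.70) in vehicle livers, from 4.54 to 5.13 (median 4.81) at 198 mg/kg-d, from 4.75 to 5.44 (median 5.13) at 313 mg/kg-d and from 4.55 to 5.27 (median 4.88) at 427 mg/kg-d. Its groups overlapped too, with a log2 fold change of 0.38 (SE 0.146, FDR 0.0513) at 313 mg/kg-d and 0.17 (SE 0.146, FDR 0.415) at 427 mg/kg-d. When only genes averaging 10 CPM or more were tested, Psmb10 passed at 313 mg/kg-d (FDR 0.0389). The pairs of subunits that replace each other were compared within a library. This removes its scaling for genes well above the offset of 1 CPM, and only in part for low genes. Psmb9 minus Psmb6 was between -2.84 and -1.82 log2 units in vehicle livers (median -2.29) and between -3.57 and -2.63 at 427 mg/kg-d (median -3.09). The difference fell by 0.75 log2 units (SE 0.222; exact permutation test, two-sided, p = 0.0108), with 3 of 6 animals below all controls. Adjusted over the 6 tests of this kind in FROZ the exact p was 0.0649, which did not pass, and the smallest p that 6 against 6 animals allow is 0.00216. At 198 and 313 mg/kg-d the change was -0.068 (exact p = 0.812) and -0.33 (exact p = 0.132). Psmb10 minus Psmb7 changed by -0.14, 0.085 and -0.11 over the 3 doses (exact p = 0.593, 0.673 and 0.587).

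**Figure D4:**
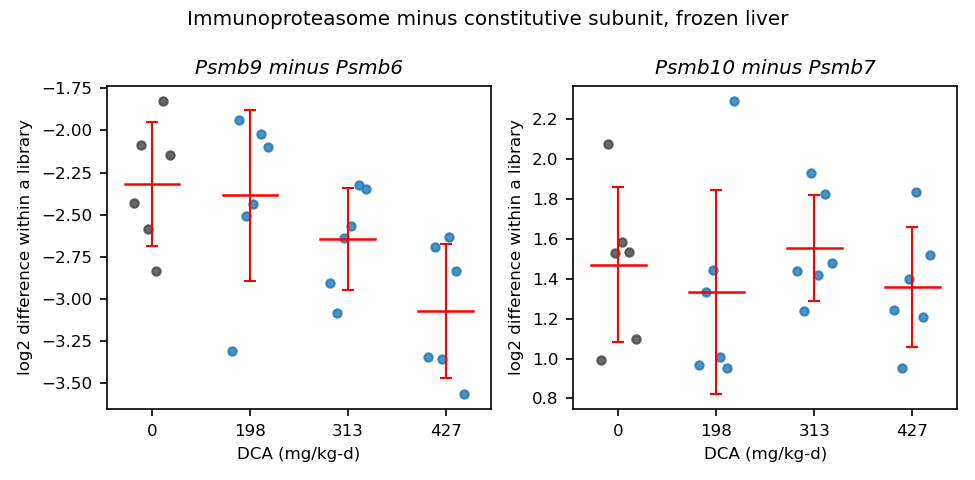
Log2 difference within each FROZ library between an immunoproteasome subunit and the constitutive subunit it replaces, Psmb9 minus Psmb6 and Psmb10 minus Psmb7, against DCA dose; each point is 1 of 6 animals, with the mean and SD in red. Psmb9 minus Psmb6 has a median of -2.29 in vehicle livers and -3.09 at 427 mg/kg-d with overlapping points, and Psmb10 minus Psmb7 overlaps at every dose.

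Immunoproteasome genes are strongest in leukocytes and antigen-presenting cells, and markers of such cells were measured beside them. Of 6 listed Kupffer cell and macrophage markers (Marco and Timd4 were not listed) 3 were lower at 427 mg/kg-d (50%, beside 7.33% of all genes). The log2 fold change was -0.50 for Adgre1 (FDR 0.014), -0.46 for Cd5l (FDR 0.0313) and -0.35 for Csf1r (FDR 0.0486). At 313 mg/kg-d 0 of the 6 passed (lowest FDR 0.528). The 6 markers summed to 76.3 to 115 CPM (median 102.5) in vehicle livers. The sum was 62.6 to 135 CPM (median 103.7) at 313 mg/kg-d and 64 to 82.8 CPM (median 75.5) at 427 mg/kg-d. Of 10 listed markers of other leukocytes (Cd79a and S100a9 were not listed) 0 passed at 427 mg/kg-d, with a summed level of 113 to 133 CPM in vehicle livers and 94.5 to 216 CPM at 427 mg/kg-d, and S100a8 was higher at 313 mg/kg-d (0.88, FDR 0.0116). Of 3 listed antigen-presenting markers 0 passed (H2-Eb1 was not listed), with 79.6 to 111 CPM in vehicle livers and 59.7 to 196 CPM at 427 mg/kg-d. The part of these cells in the values of Psmb9 and Psmb10 was not tested. Among 11 listed genes of class I antigen processing, 3 were lower at each upper dose (27.3%, beside 6.15 and 7.33% of all genes) and 0 were higher. The chaperones Pdia3 and Calr were lower at both doses, with a log2 fold change of -0.87 (FDR 3.04e-05) and -0.88 (FDR 1.65e-05) for Pdia3 and, for Calr, -0.47 (FDR 0.0178) and -0.45 (FDR 0.0195). H2-K1 was lower at 313 mg/kg-d (-0.44, FDR 0.0337) and Erap1, which trims peptides, at 427 mg/kg-d (-0.27, FDR 0.026). The peptide transporter genes Tap1 and Tap2 and the interferon factor Irf1 did not pass. With median-ratio scaling 4 genes of the list were lower at 313 mg/kg-d and 6 at 427 mg/kg-d, beside 10.8 and 12.6% of all genes.

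Regulators of proteasome genes were then examined. Nfe2l2 (NRF2), the factor of the oxidative stress response, rose from a mean of 3.85 in vehicle livers to 4.83 at 313 mg/kg-d and 5.40 at 427 mg/kg-d. Its log2 fold change was 0.97 (SE 0.159, FDR 5.16e-05) and 1.54 (SE 0.159, FDR 3.10e-08). Nfe2l1 (NRF1), the factor that restores proteasome levels when degradation is blocked, rose from 7.94 to 8.32 and 8.65, by 0.38 (FDR 4.65e-04) and 0.71 (FDR 5.09e-08). For both genes the 6 animals of each upper dose lay above all controls, and both calls held with median-ratio scaling. Ngly1, which processes NRF1, rose at 313 mg/kg-d by 0.36 (FDR 0.017), and the small Maf partner Mafk at 427 mg/kg-d by 0.49 (FDR 0.0203), each without a call after median-ratio scaling. Maff and Mafg did not pass, and Ddi2 was not listed. These are transcript levels, and both factors are known to be controlled largely after transcription.

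Of 22 listed partners of the proteasome, 7 rose and 0 fell at each upper dose (31.8%, beside 20.5 and 22.7% of all genes higher). Rps27a, which encodes ubiquitin fused to a ribosomal protein, rose by 0.63 (FDR 5.83e-04) and 0.37 (FDR 0.0283). Shuttle genes that bring ubiquitinated substrates rose as well, Ubqln1 by 0.46 (FDR 1.22e-04) and 0.28 (FDR 0.0105) and Ubqln4 by 0.37 (FDR 0.0136) and 0.63 (FDR 7.18e-05). The ubiquitin ligase Ube3c, which binds the proteasome, rose by 0.49 (FDR 9.07e-05) and 0.35 (FDR 0.00216). Rad23b was called at 313 mg/kg-d alone (0.48, FDR 0.0301) and Nploc4, a cofactor of Vcp, at 427 mg/kg-d alone (0.41, FDR 0.00141), where the difference between doses was not tested. Vcp and the cap-bound deubiquitinases Usp14 and Uchl5 did not pass. With median-ratio scaling 4 partners rose at 313 mg/kg-d (18.2%, beside 10.3% of all genes) and 3 at 427 mg/kg-d (13.6%, beside 12.6%), about the share of all genes at the higher dose, and 1 and 2 were lower.

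At 198 mg/kg-d 0 of 42 members passed in FROZ (limma), beside 1.56% of all genes. At an unadjusted p under 0.05 the members numbered 8, or 19% of 42, beside 17.1% of all genes. The lowest FDR was 0.0852, for Psmd5, at a log2 fold change of 0.25 (SE 0.0753), with 6 of 6 animals above all controls. Over all 4 doses, a limma fit of level against dose called 19 members rising and 1 falling (Psme4), beside 24.4 and 7.73% of all genes. The steepest slopes were those of Psmd8 (0.16 log2 units per 100 mg/kg-d, SE 0.0225, FDR 3.68e-06), Psmf1 (0.14, FDR 6.85e-04) and Psmb6 (0.13, FDR 0.00126). By class 4 of 12 core, 6 of 16 cap, 5 of 7 chaperone and 3 of 4 activator or inhibitor genes rose with dose, and 0 of 2 immunoproteasome genes did. With median-ratio scaling 9 members rose and 1 fell with dose, beside 13.6 and 13.4% of all genes.

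Probes can also read copies of a gene. The positions of the detector oligos were not used here, so windows of 50 bases, the read length, were compared between transcripts (GENCODE vM21). Psme2b shared 69.3% of its windows with other genes, mainly Psme2, so its value cannot be assigned to one of them. Psmb5 shared 54.1%, with the pseudogene Psmb5-ps and Gm3375 among them, Psma4 11.6%, Psmg3 7.89% and Psme1 5.47%. Psmd8, Psmf1, Psme3, Psme4 and Psmg1 shared none.

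In FFPE liver 0 of the 31 listed members passed at any dose (limma), beside 0.0599, 1.08 and 2.41% of all genes at 198, 313 and 427 mg/kg-d. At an unadjusted p under 0.05 there were 5, 4 and 0 members, beside 11.8, 11.7 and 8.71% of all genes. The median log2 fold change of the members was -0.26, 0.17 and 0.25 over the 3 doses, and that of all genes -0.19, -0.12 and 0.18. The lowest FDR was that of Psmb5 at 313 mg/kg-d. Psmb5 in FFPE ran from 3.83 to 6.51 (median 5.91) in vehicle livers, from 5.27 to 7.63 (median 6.23) at 198 mg/kg-d, from 6.06 to 7.85 (median 7.22) at 313 mg/kg-d and from 5.85 to 6.89 (median 6.06) at 427 mg/kg-d. Groups overlapped, with a log2 fold change of 1.48 (SE 0.442, FDR 0.113) at 313 mg/kg-d. Psmb6 had the smallest spread, from 9.41 to 9.96 (median 9.49) in vehicle livers, 8.77 to 9.70 (median 9.38) at 198 mg/kg-d, 9.60 to 10.30 (median 9.95) at 313 mg/kg-d and 9.63 to 9.98 (median 9.84) at 427 mg/kg-d. Its log2 fold change was 0.36 (FDR 0.369) at 313 mg/kg-d and 0.22 (FDR 0.906) at 427 mg/kg-d. Psmb10 ran from 5.07 to 6.93 (median 6.05) in vehicle livers, 5.98 to 7.11 (median 6.32) at 198 mg/kg-d, 5.43 to 6.45 (median 6.05) at 313 mg/kg-d and 5.16 to 6.27 (median 6.06) at 427 mg/kg-d, all overlapping. Psmb9 was listed at 0 in 1, 3, 2 and 1 of the 6 libraries from vehicle to 427 mg/kg-d, and reached at most 3.52, 5.15, 5.18 and 4.33. At a listed 0 an expected count of up to 3 reads remains possible. Psme1 was listed at 0 in 1 vehicle and 1 198 mg/kg-d library and ran from 4.87 to 6.54 (median 5.69) at 313 mg/kg-d and 4.40 to 5.80 (median 5.04) at 427 mg/kg-d, where the controls reached 6.18. Psmb9 minus Psmb6 within FFPE libraries changed by -0.29, -0.021 and 0.087 log2 units over the 3 doses, less than the spread (3 tests, exact p between 0.829 and 0.985). Where Psmb9 was at 0 the difference was minus the Psmb6 value, so library scaling was not removed there. With dose, 0 of 31 members rose or fell in FFPE (limma slope), beside 1.51 and 0.659% of all genes.

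The spread within dose groups was larger in FFPE for nearly all members. The same animals gave the libraries of both preservations, from tissue that had been stored for decades. The source of the larger FFPE spread was not tested. The pooled SD within dose groups had a median of 1.27 log2 units in FFPE for the 31 genes and of 0.186 in FROZ for the same genes, and 6.18% of the FFPE values, in 18 genes, were at 0 against none in FROZ. Psmb6 was the 1 gene with a smaller SD in FFPE (0.241) than in FROZ (0.255). Its FROZ SD was 0.408 at 198 mg/kg-d, where animal 49 stood apart, and 0.180, 0.187 and 0.162 at 0, 313 and 427 mg/kg-d. Its FFPE SD was 0.312 at 198 mg/kg-d and 0.230, 0.234 and 0.167 in those other groups, larger there than in FROZ. The median 95% interval of a log2 fold change was 2.92 wide in FFPE and 0.440 wide in FROZ. It held the FROZ estimate for 25, 29 and 29 of the 31 genes at 198, 313 and 427 mg/kg-d, and held 0 for 26, 27 and 31. For Psmb6, whose SE was 0.165 in FFPE and 0.137 in FROZ, the FFPE interval at 427 mg/kg-d was -0.11 to 0.56, just below the FROZ estimate of 0.58. The difference in response, tested with limma on FFPE minus FROZ within each animal, passed for 0 of 31 genes at any dose (0.0303, 0 and 0.0303% of all genes), with 5, 2 and 1 at an unadjusted p under 0.05 (11.4, 7.39 and 2.22% of 6591 genes listed in both).

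**Figure D5:**
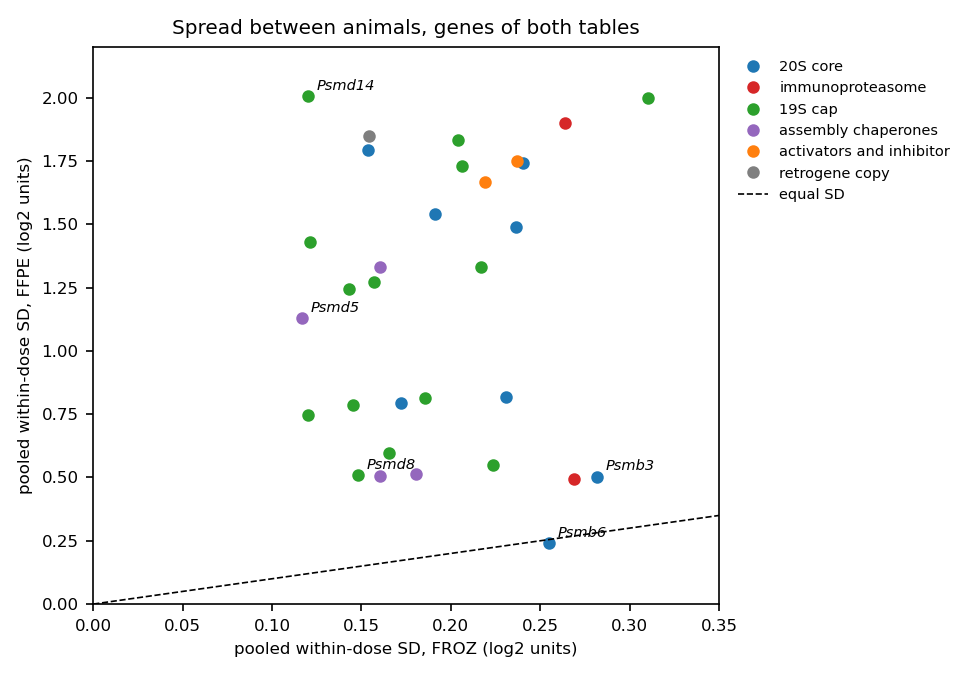
Pooled SD within dose groups of log2(CPM + 1) in FFPE against FROZ (log2 units) for the 31 members listed in both, 1 point per gene, coloured by class; the dashed line marks equal SD and the axes differ in scale. All points but Psmb6 (0.255 in FROZ and 0.241 in FFPE) lie above the line, up to 2.01 for Psmd14.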

How the data were processed

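TempO-Seq libraries of 24 FROZ and 24 FFPE liver samples, 1 of each per animal, were analysed. The deposited values are log2(CPM + 1), in 1 table per preservation. Per the labels and methods, the authors aligned reads with STAR (2.6 in the submitters' processing notes) to mm10 in Partek Flow, counted them on RefSeq transcripts, removed low-count genes and scaled each library to CPM. Each table was scaled on its own, so levels were not compared across tables.

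Read depth was recovered from the smallest step of each library, and a value at 0 allows an expected count of up to 3 reads (counting error only). Each dose was compared with vehicle by limma (version 3.58.1, R 4.3.3) with a trended prior, over all 4 doses and all genes of a table, with no further filter, pseudocount or covariate and with Benjamini-Hochberg adjustment (FDR under 0.05). Fold changes on the log2(CPM + 1) scale understate changes of low genes. Slopes were fitted on dose. Differences between subunits in a library were tested by exact permutation over 924 splits of the animals. FFPE and FROZ responses were compared on the difference within an animal. Both libraries come from the same animal, and their deviations from the dose means correlated at a median of 0.128 (21 of 24 animals best with their own). Alternatives were median-ratio scaling, offsets of 0.1 and 0.0001 CPM, a mean of at least 10 CPM, array weights, a covariate for genes at 0, a minimum of 3 M reads, fits of 2 groups, no replicate block and leaving out each animal. The limma fits were tested on simulated data. The genes given group values are the catalytic subunits, their immunoproteasome counterparts, the activators and the inhibitor, and the strongest calls of the other classes. The members and lists were chosen with earlier results of these data known. Some genes of the lists are counted but not reported here by name. Animals are the replicates.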

Additional observations from a re-analysis of the deposited data

Results flagged for a closer look

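Dixon's 95% value was applied to 84 groups of 6 animals for the genes and subunit differences described above. In 11 of them the highest or lowest animal lay far from the rest. Chance gives this in about 1 of 20 groups, if groups are independent and values normally distributed. These groups share animals, and the flagged subunit differences contain genes flagged in the same animal. The count was not tested against that share. In FROZ at 198 mg/kg-d, animal 49 had a log2(CPM + 1) of 6.74 for Psmb6 (nearest 5.87), of 3.59 for Psma4 (nearest 4.26) and of 6.20 for Psme4 (nearest 6.63). Animal 54 of the same dose had 2.83 for Psmb7 (nearest 3.49), and its Psmb10 minus Psmb7 was 2.29 (nearest 1.44). In FROZ at 427 mg/kg-d, animal 101 had 2.54 for Psme1 (nearest 2.70) and 6.22 for Psme4 (nearest 6.60). In FFPE at 427 mg/kg-d, animal 97 had 6.89 for Psmb5 (nearest 6.09) and 5.16 for Psmb10 (nearest 5.91). In FFPE vehicle livers, animal 3 was listed at 0 for Psmb9 (nearest 2.46), and its Psmb9 minus Psmb6 was -9.96 (nearest -7.03).

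For Psmg1 at 427 mg/kg-d, all 6 FROZ animals lay above the vehicle mean, with a log2 fold change of 0.48, and all 6 FFPE animals lay below theirs, with -0.32, which did not pass (limma, unadjusted p 0.309). At 313 mg/kg-d both were above vehicle, by 0.32 in FROZ and by 0.73 in FFPE (limma, unadjusted p 0.0259, FDR 0.335). The difference, FFPE minus FROZ, was -0.81 (SE 0.319). Tested within animals by limma it had an unadjusted p of 0.0188 and an FDR of 1.00, and did not pass.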

How the results depend on the processing

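Median-ratio scaling was the alternative that moved the FROZ results most. The median log2 fold change of the members became 0.0055, 0.13 and 0.058 at 198, 313 and 427 mg/kg-d, the members called became 7 and 9 at the upper doses and 10 for the slope, and Psmb9 at 313 mg/kg-d became -0.061. In FFPE the members' median at 198 mg/kg-d became 0.070 with array weights and 0.029 with a covariate for genes at 0. Psmb9 in FFPE at 313 mg/kg-d became -0.11 and -1.76 with offsets of 0.1 and 0.0001 CPM, and with array weights Psmb9 at 427 mg/kg-d became -0.26 and Psme1 at 198 mg/kg-d 0.17. The causes were not tested. Outside the leave-outs, 134 other summary values stayed within set limits of the main fit and 8 moved. The limit was a ratio for counts and the SD of the vehicle animals' medians for medians. Subunit differences had to keep their sign and call. Leaving out 1 animal gave 11 to 20 calls in FROZ at 313 mg/kg-d, the lowest without animal 74 or 75. In FROZ, Psmb9 minus Psmb6 was -0.86 to -0.65 at 427 mg/kg-d (adjusted exact permutation p 0.026 without animal 6 to 0.156) and -0.17 to 0.12 at 198 mg/kg-d. Psmb10 minus Psmb7 was -0.010 to 0.21 at 313 mg/kg-d and -0.20 to 0.011 at 427 mg/kg-d, and Psmb10 at 198 mg/kg-d was -0.0049 to 0.21. In FFPE, Psmb9 minus Psmb6 was -1.04 to 0.17, -0.60 to 0.58 and -0.49 to 0.61 over the 3 doses. Psmb9 in FFPE was -0.16 to 0.91 at 313 mg/kg-d and -0.19 to 0.87 at 427 mg/kg-d, Psmb10 was -0.33 to 0.043 and -0.35 to 0.025, and Psme1 at 198 mg/kg-d was -0.99 to 0.55. Without the replicate block, which pairs the libraries of an animal, 0 members differed in response between FFPE and FROZ at any dose, as with it.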

Other observations

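Markers of the remaining liver cell types were measured in FROZ beside the proteasome genes. Of 7 hepatocyte markers, Trf (transferrin) had a log2 fold change of -0.66 (FDR 8.72e-04) and -0.75 (FDR 1.39e-04) at 313 and 427 mg/kg-d, and Hnf4a rose by 0.45 (FDR 0.00441) at 427 mg/kg-d, with an FDR of 0.0525 after median-ratio scaling. With median-ratio scaling 3 of the 7 were lower at 313 mg/kg-d and 4 at 427 mg/kg-d, and 0 were higher. At this scaling 10.3 and 12.6% of all genes were higher at 313 and 427 mg/kg-d, and 10.8 and 12.6% were lower. In FFPE at 427 mg/kg-d 3 of 6 listed were lower (58 of all 6673 genes were lower), with a list median of -0.70. The summed level of the hepatocyte markers was 36062 to 44046 CPM in vehicle livers and 27341 to 36014 CPM at 427 mg/kg-d. Of 5 endothelial markers, Stab2, a scavenger receptor of sinusoidal cells, was lower at both upper doses (-0.57 and -0.66, FDR 1.64e-04 and 1.70e-05). After median-ratio scaling 3 of 5 were lower at each of these doses, beside 10.8 and 12.6% of all genes. The list summed to 118 to 138 CPM in vehicle livers and 92.3 to 112 CPM at 427 mg/kg-d. Of 5 listed stellate cell markers, Dcn was lower at both doses (-0.35 and -0.41, FDR 0.0106 and 0.00247) and Lrat was higher at 313 mg/kg-d (0.64, FDR 0.0116), with sums of 260 to 564 CPM in vehicle livers and 226 to 394 CPM at 427 mg/kg-d. With median-ratio scaling 1 stellate marker was higher and 1 lower at 313 mg/kg-d, and 2 were lower at 427 mg/kg-d. Of 3 listed cholangiocyte markers 0 passed, and 1 was lower at 427 mg/kg-d after median-ratio scaling, with sums of 32.9 to 45.0 CPM and 29.9 to 46.9 CPM. The part of these cells in the proteasome values was not tested.

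Psmc3ip, which matched the symbol pattern but encodes no proteasome protein, had a mean log2(CPM + 1) of 0.83 in vehicle livers and log2 fold changes of 0.17, 0.20 and 0.12 over the 3 doses, none of which passed (limma FDR 0.429 to 0.674).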
